A study of Mus musculus with 2 samples.

Results

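The 9 genes described here encode transcription factors that set the course of muscle stem cells: Pax7, Pax3, Myf5, Myod1, Myog, Myf6, Mef2a, Mef2c and Msc. They were taken by gene symbol from the 55487 genes listed in both libraries, and all 9 were found. Their levels and their joint presence per cell were compared between 2 single-cell RNA-seq libraries of injured tibialis anterior muscle from mice 8 to 12 weeks old, 1 labelled WT and 1 labelled KO, the latter from the conditional Setdb1 knockout model (Setdb1-cKO). SETDB1 is a histone methyltransferase that places a silencing mark on lysine 9 of histone H3, and the study asked what it does in muscle stem cells during regeneration. Both libraries were made from digested muscle, with cells sorted on Hoechst and propidium iodide staining. Neither the labels nor the design text name the Cre driver, the kind of injury, the day of sampling or the number of animals per library. Each group is 1 library, so animals could not be compared and no p-value is given, and every interval below is a 95% interval that covers counting error only.

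Quiescent muscle stem cells express PAX7, a paired-box factor, and often MYF5, a basic helix-loop-helix (bHLH) factor; PAX3 is its close relative and is kept in a minority of adult stem cells. After injury the cells divide and take up MYOD1, a bHLH factor that binds E-box sequences and opens muscle genes. They then switch on MYOG (myogenin), leave the cell cycle and fuse, while MYF6 (MRF4) acts late and in mature fibres. The MEF2 proteins, among them MEF2A and MEF2C, bind A/T-rich sites beside these factors, and MSC (musculin, MyoR) is a bHLH repressor that competes with MYOD1 for E-boxes.

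In GENCODE M21 (GRCm38), Myf6 (chr10:107492853-107494737) and Myf5 (chr10:107482908-107486134) lie on the minus strand, 6718 bases apart. Pax7 spans chr4:139737062-139833528 and Pax3 spans chr1:78101267-78197134, both on the minus strand. Myod1 lies at chr7:46376474-46379099 and Myog at chr1:134289989-134292548, both on the plus strand. Msc lies at chr1:14753346-14755992 on the minus strand. Mef2a (chr7:67231163-67372858, minus strand) and Mef2c (chr13:83504034-83667080, plus strand) are the longest. Mef2a overlaps Gm44667 and Gm44668 on its own strand, so reads of Mef2a could have been shared with them. On the other strand Mef2a overlaps Lysmd4, and Msc overlaps Gm9947. Reads could have been shared with these only if counting ignored the strand, which is not stated.

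Promoter windows of RefSeq (GRCm38.p6, 250 bases before to 50 bases after the start) were matched for 5 of the 9 members: Pax7, Myf5, Myog, Mef2a and Mef2c. The windows of Pax7 (chr4:139832919-139833218, minus strand), Myf5 (chr10:107486085-107486384, minus strand) and Myog (chr1:134289754-134290053, plus strand) are shown because Pax7 and Myf5 were lower and Myog was higher in the KO library. Capitals mark E-boxes (CANNTG, searched on both strands) and the MEF2 core (CTA, then 4 bases that are each A or T, then TA, searched on both strands).
Pax7: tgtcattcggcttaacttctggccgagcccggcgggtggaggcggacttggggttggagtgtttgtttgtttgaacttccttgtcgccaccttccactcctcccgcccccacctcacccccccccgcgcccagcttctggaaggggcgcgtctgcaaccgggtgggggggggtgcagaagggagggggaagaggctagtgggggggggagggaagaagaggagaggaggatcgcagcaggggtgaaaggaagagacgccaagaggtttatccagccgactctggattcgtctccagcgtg
Myf5: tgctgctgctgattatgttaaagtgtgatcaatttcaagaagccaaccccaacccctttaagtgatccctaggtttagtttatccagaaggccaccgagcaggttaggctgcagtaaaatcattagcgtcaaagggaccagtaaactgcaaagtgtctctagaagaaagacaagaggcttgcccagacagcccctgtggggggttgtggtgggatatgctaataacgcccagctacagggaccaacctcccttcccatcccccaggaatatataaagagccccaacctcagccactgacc
Myog: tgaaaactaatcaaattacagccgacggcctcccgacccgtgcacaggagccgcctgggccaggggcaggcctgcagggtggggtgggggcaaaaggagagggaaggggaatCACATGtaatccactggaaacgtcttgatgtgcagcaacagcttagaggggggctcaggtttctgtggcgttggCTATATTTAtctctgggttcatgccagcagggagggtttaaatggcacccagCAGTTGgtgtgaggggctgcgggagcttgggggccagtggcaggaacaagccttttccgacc
The Myog window held 2 E-boxes, CACATG beginning 138 bases and CAGTTG beginning 12 bases before the start. It also held 1 MEF2 core, CTATATTTA, beginning 64 bases before the start. No such letters occurred in the Pax7 and Myf5 windows. The Pax7 window lies wholly inside the GENCODE gene, whose 5' end on the minus strand is at 139833528. The sequence around that start was therefore not searched for Pax7. Of 32851 windows of the same length, 72.3% held an E-box and 3.604% a MEF2 core, so an E-box alone is common. The Mef2a window held the MEF2 core at its start, as 2 overlapping matches on opposite strands, and no E-box. Among the 3 Mef2c windows, 2 held at least 1 E-box and none held the MEF2 core.

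Myogenic barcodes were found without the help of the 9 members. Barcodes with at least 5000 UMIs (unique molecular identifiers, each counting 1 captured RNA molecule), 300 genes and at most 10% mitochondrial UMIs were kept, which left 6345 WT and 6411 KO barcodes once the likeliest doublets were removed. Both libraries were clustered together with the members left out, and clusters were named from marker lists that hold no member. The myogenic class therefore means myogenic-like cells by markers such as Cdh15, Des, Chrna1 and Mymk. It held 681 WT barcodes (10.7%) and 394 KO barcodes (6.15%), in clusters 8, 17, 18 and 19. Cluster 8, led by Pax7, Myf5 and Cdh15, held 519 WT and 193 KO barcodes. The others were led by histone genes (54 WT and 79 KO barcodes), by Actc1, Myog and Mymk (46 and 78) and by Cenpf and Cdc20 (62 and 44). Median depth was 17352 UMIs per WT and 20606 per KO myogenic barcode. Because a deeper barcode shows more genes, every myogenic barcode was thinned to 5000 UMIs before presence was scored, and a gene was called positive with 1 or more UMIs left. No myogenic barcode was shared between the libraries, which shared 9 of the barcodes with at least 5000 UMIs.

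Setdb1, the targeted gene, stood at 17.9 CPM (238 UMIs) among WT and at 8.59 CPM (78 UMIs) among KO myogenic barcodes, a ratio of 0.480 (0.367 to 0.622). CPM are a gene's counts per 1000000 UMIs of the class. A 3' tag does not show whether the remaining RNA carries the deletion. Setdb1 did not stand at 0 in the KO barcodes. Scored by the members, it was at 10.7 CPM in Pax7-positive, 8.00 CPM in Myod1-positive and 5.95 CPM in Myog-positive KO barcodes. The matching WT levels were 17.9, 23.1 and 22.5 CPM. The KO levels rest on 28, 29 and 18 UMIs. Phagocytes held 16.5 CPM of Setdb1 in WT and 20.8 CPM in KO, and fibro-adipogenic cells held 13.9 and 16.9 CPM, so these classes showed no lower level. Endothelial (12.1 and 12.1 CPM), dendritic (13.6 and 13.9 CPM) and T or NK cells (7.30 and 20.4 CPM) showed none either. Tenocytes held 17.7 and 11.4 CPM, a ratio of 0.641 (0.362 to 1.14). Mural cells held 14.4 and 9.84 CPM, a ratio of 0.684 (0.293 to 1.65). These 2 ratios are lower, with intervals that include no difference.

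The stem cell factors Pax7, Pax3 and Myf5 stood lower in the KO library, and Myod1, Myog and Mef2c stood higher. Msc and the late factor Myf6 were lower as well. Of all 11508 genes with at least 50 UMIs in both myogenic sums together, 10.1% were at least 1.5-fold higher in KO, 9.28% at least 1.5-fold lower and 19.3% either. Of the 9 members, 3 were past 1.5-fold higher (Myod1, Myog and Mef2c) and 5 past 1.5-fold lower (Pax7, Pax3, Myf5, Myf6 and Msc), and Mef2a lay within 1.5-fold. All 9 passed the filter on UMIs. The median ratio was 0.664 over the members and 1.04 over all genes tested. With 5 CPM added to each level, which shrinks the ratios of low genes, the median log2 ratios were -0.34 and 0.04.

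Pax7 reached 153 CPM among WT barcodes (147 to 160) and 91.0 CPM among KO barcodes (84.9 to 97.4), a ratio of 0.594 (0.547 to 0.644). After thinning, 46.4% of WT barcodes (42.6 to 50.2) and 31.5% of KO barcodes (26.9 to 36.3) were positive, a difference of -14.9 points (-20.7 to -8.90). A positive barcode held a mean of 1.71 Pax7 UMIs in WT and 1.73 in KO after thinning, where the lowest possible value is 1. Before thinning, 23.6% of all WT and 15.2% of all KO barcodes held 5 or more. Myf5 had 172 CPM among WT and 90.3 CPM among KO barcodes, a ratio of 0.526 (0.485 to 0.570). Its positive share was 47.1% in WT and 33.8% in KO, with 1.87 and 1.53 UMIs per positive barcode. Pax3 was at 8.12 and 5.39 CPM, a ratio of 0.664 (0.464 to 0.939), from 108 and 49 UMIs. Its positive shares of 3.67% and 2.54% differed by -1.13 points with an interval of -3.18 to 1.25, which includes no difference.

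Myod1 went the other way. It had 84.9 CPM among WT (80.0 to 89.97) and 165 CPM among KO barcodes (157 to 174), a ratio of 1.95 (1.80 to 2.10). Positive barcodes made up 16.6% of WT (13.9 to 19.6) and 38.6% of KO (33.7 to 43.6), a difference of 22.0 points (16.4 to 27.5). Each positive barcode held 2.15 Myod1 UMIs in WT and 2.03 in KO. Myog had 431 CPM in WT and 768 CPM in KO, a ratio of 1.78 (1.72 to 1.85). Its positive share was 12.5% in WT (10.1 to 15.2) and 31.2% in KO (26.7 to 36.05). Myog was concentrated in few barcodes: a positive one held a mean of 13.0 UMIs in WT and 10.9 in KO after thinning, and the highest single barcode held 442 and 293 UMIs before it. Myf6 was near the detection limit, with 44 WT and 14 KO UMIs (3.31 and 1.54 CPM) and positive shares of 1.91% and 0.761%, whose difference of -1.15 points (-2.57 to 0.506) includes 0. More Myf6 was seen per barcode in the small muscle fibre cluster (under the 50 barcodes asked of a class), where 19 WT barcodes held 18 UMIs and 32 KO barcodes held 60.

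Among the other regulators, Mef2c had 29.1 CPM in WT and 53.4 CPM in KO, a ratio of 1.83 (1.60 to 2.10), with positive shares of 8.66% and 14.97%. Mef2a had 95.9 CPM in WT and 129 CPM in KO, a ratio of 1.34 (1.24 to 1.45), with positive shares of 30.2% and 37.3%. Msc had 180 CPM in WT and 86.4 CPM in KO, a ratio of 0.479 (0.442 to 0.520). It was positive in 44.5% of WT (40.7 to 48.3) and 25.9% of KO barcodes (21.6 to 30.5), a difference of -18.6 points (-24.1 to -12.8). The intervals of the WT and KO shares did not overlap for Pax7, Myf5, Myod1, Myog, Mef2c and Msc. They overlapped for Pax3, Myf6 and Mef2a. The share of all genes whose intervals do not overlap is not given here, so this tally does not set the members apart from other genes. The number of the 9 members seen per barcode was almost equal, with a mean of 2.12 in WT and 2.16 in KO. For Pax7, Myf5, Myod1 and Myog alone the number did differ. Exactly 1 of them was seen in 42.9% of WT and 33.2% of KO barcodes, a difference of -9.63 points (-15.5 to -3.59). Exactly 2 were seen in 34.2% and 40.4%, a difference of 6.14 points (0.172 to 12.2). Exactly 3 were seen in 3.38% and 6.35%, a difference of 2.97 points (0.373 to 6.03).

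**Figure D1:**
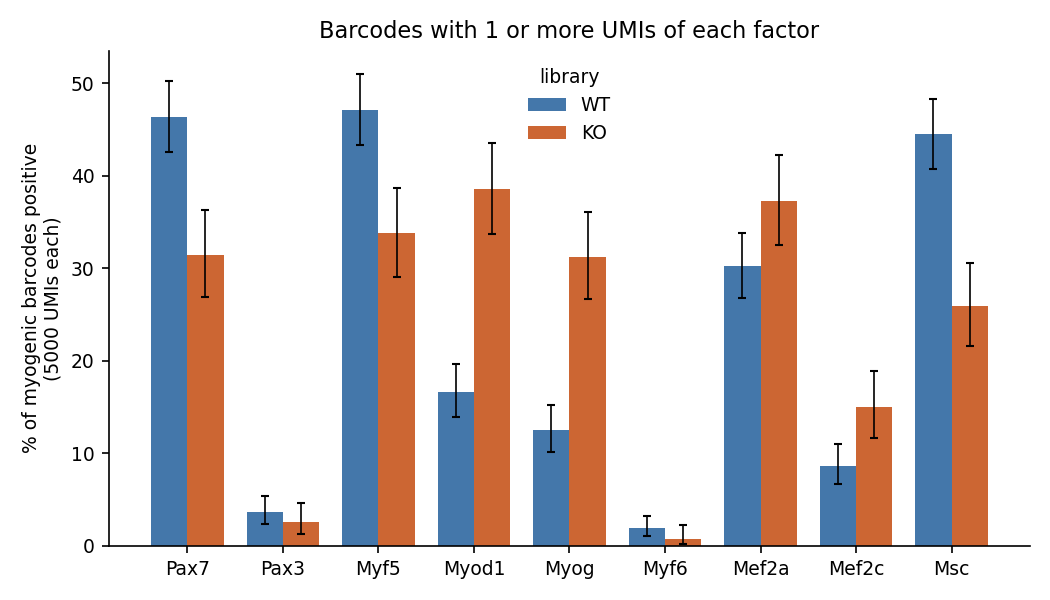
Share of myogenic barcodes with 1 or more UMIs of each factor (vertical axis, %, every barcode thinned to 5000 UMIs) in the WT (681 barcodes) and KO library (394 barcodes), with 95% Clopper-Pearson intervals. Pax7, Myf5 and Msc stood higher in WT (46.4%, 47.1% and 44.5%), and Myod1, Myog and Mef2c stood higher in KO (38.6%, 31.2% and 14.97%).

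For Pax7, Myod1 and Myog the libraries differed in the same direction within bins of depth, without thinning. Among barcodes of 5000 to 10000 UMIs, Pax7 was positive in 61.6% of 73 WT and 37.9% of 66 KO barcodes, and Myod1 in 15.1% and 39.4%. Above 20000 UMIs Pax7 was positive in 84.0% of 256 WT and 67.7% of 201 KO barcodes, and Myod1 in 34.0% and 71.1%. Myog was positive in 6.85% and 30.3% in the lower of these bins and in 28.9% and 51.7% in the upper. Mef2a did not keep its direction: its shares were 38.4% and 37.9% in the lower bin, 62.2% and 60.6% between 10000 and 20000 UMIs, and 79.7% and 84.6% in the upper.

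Positives were few in phagocytes. These cells, which should lack muscle factors, were Pax7-positive in 0.173% of 3476 WT and 0.110% of 3627 KO barcodes after thinning. Their Myod1 shares were 0.259% and 0.331%, their Msc shares 0.489% and 0.276%, and their Myog shares 0.949% and 1.76%. All stand far below the myogenic shares of the same genes. Median depths of phagocytes were 11454.5 and 11807 UMIs. For Mef2a and Mef2c phagocytes are no blank, since they express both. Myog was seen more often in KO tenocytes, in 10 of 140 barcodes, where the source of its RNA was not tested.

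Pax7 marks stem cells, Myod1 activated ones and Myog differentiating ones, and their joint patterns were counted per barcode. Barcodes with Pax7 alone of these 3 made up 41.0% of WT and 21.1% of KO, a difference of -19.9 points (-25.2 to -14.3). Barcodes with Myod1 and Myog but no Pax7 made up 7.20% of WT and 17.8% of KO, a difference of 10.6 points (6.48 to 14.995). Myod1 alone was found in 5.29% and 13.2%, and Myog alone in 3.23% and 8.63%, with differences of 7.91 points (4.34 to 11.9) and 5.40 points (2.52 to 8.77). None of the 3 was seen in 37.9% of WT and 28.9% of KO barcodes. With Myf5 added, barcodes negative for all 4 made up 19.2% and 19.5%.

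Pax7 with Myod1, Pax7 with Myog and Myf5 with Myod1 were each seen in a larger share of KO barcodes, while the difference for Myf5 with Myog, 1.78 points (-0.476 to 4.50), includes 0. Pax7 and Myod1 occurred together in 28 WT barcodes (4.11%) and 30 KO barcodes (7.61%), a difference of 3.50 points (0.659 to 6.80). Pax7 and Myog occurred together in 14 WT barcodes (2.06%) and 19 KO barcodes (4.82%), a difference of 2.77 points (0.576 to 5.48). All 3 were seen in 5 WT barcodes (0.734%) and 8 KO barcodes (2.03%), and the interval of that difference, -0.0976 to 3.27 points, includes 0. Pax7, Myf5, Myod1 and Myog were all seen in 2 barcodes of each library. Myf5 and Myod1 occurred together in 4.41% of WT and 11.2% of KO barcodes, a difference of 6.76 points (3.47 to 10.5) and a ratio of 2.54. That ratio was 2.03 over all draws of the thinning and 1.55 with barcodes chosen one by one on their own markers. Without the 8 WT and 24 KO barcodes of the sub-cluster with phagocyte genes it was 1.44. That sub-cluster held Myod1 in 2 WT and Myf5 in 4 KO barcodes, too few for leaving it out to give 1.44 by itself. The value therefore also reflects a new draw of the thinning. Shares of joint patterns depend on depth. Without thinning, Pax7 and Myod1 were together in 17.3% of WT and 34.3% of KO barcodes, Pax7 and Myog in 9.84% and 18.8%, Myf5 and Myod1 in 17.3% and 34.0%, and Pax7, Myod1 and Myog in 4.26% and 13.96%. Thinning is a random draw, and rare patterns move with it. Averaged over all possible draws, Pax7 with Myod1 came to 4.68% and 9.52%, Pax7 with Myog to 1.96% and 4.44%, and all 3 to 0.743% and 2.04%. Doublets could give mixed patterns. The median doublet score of the barcodes with Pax7 and Myod1 but no Myog was 0.0178 in WT and 0.0356 in KO, against 0.0109 and 0.0356 with Pax7 alone, and their part in the counts was not tested.

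**Figure D2:**
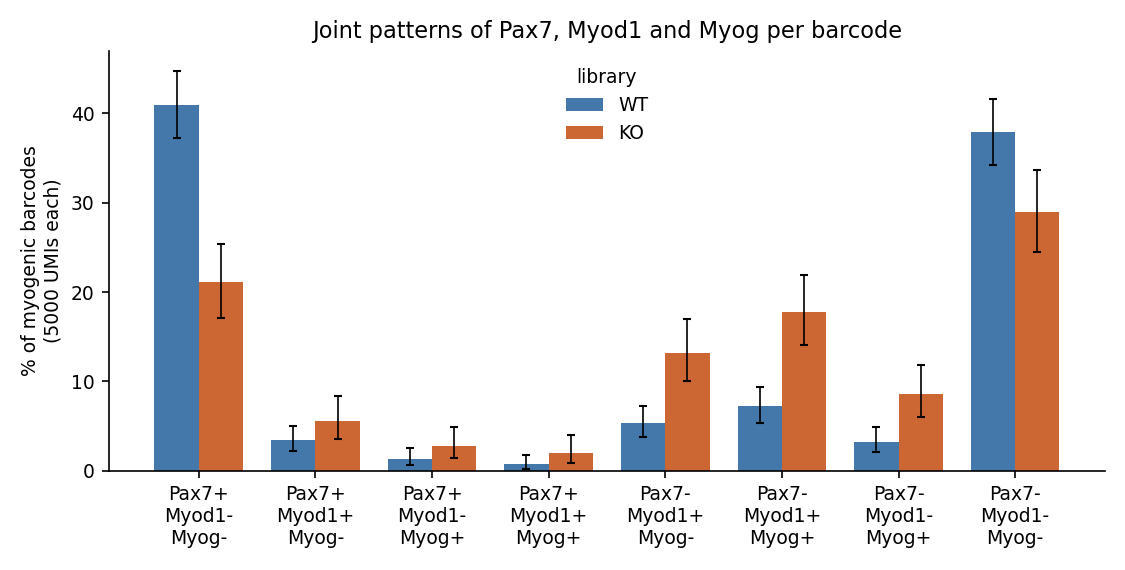
Share of myogenic barcodes with each of the 8 joint patterns of Pax7, Myod1 and Myog (vertical axis, %, thinned to 5000 UMIs) in the WT and KO library, with 95% Clopper-Pearson intervals. Pax7 alone fills 41.0% of WT and 21.1% of KO barcodes, and the pattern with Myod1 and Myog but no Pax7 fills 7.20% and 17.8%.

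The excess of Myod1 in the KO library was present among barcodes that carried a stem cell factor. Of Pax7-positive barcodes, 8.86% of 316 in WT and 24.2% of 124 in KO were also Myod1-positive, a difference of 15.3 points (7.71 to 23.99). Of Myf5-positive barcodes the Myod1 shares were 9.35% and 33.1%, a difference of 23.7 points (15.5 to 32.5). Of Msc-positive barcodes they were 8.25% and 28.4%, a difference of 20.2 points (11.5 to 29.9). Myog followed the same order among Pax7-positive barcodes, at 4.43% in WT and 15.3% in KO.

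Seen from the other side, barcodes positive for Myod1 or Myog gave differences whose intervals mostly include 0. Of Myod1-positive barcodes, 47.8% of 113 in WT and 51.3% of 152 in KO were Myog-positive, a difference of 3.53 points (-8.53 to 15.4). Of Myog-positive barcodes, 63.5% of 85 and 63.4% of 123 were Myod1-positive, a difference of -0.115 points (-13.0 to 13.2). Pax7 was seen in 24.8% and 19.7% of Myod1-positive barcodes and in 16.5% and 15.4% of Myog-positive ones. These intervals are wide and leave room for differences in either direction. Mef2a stood apart, in 59.3% of WT and 45.4% of KO Myod1-positive barcodes, a difference of -13.9 points (-25.4 to -1.74). Over all draws it came to 49.6% and 43.5%, less than that single draw.

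**Figure D3:**
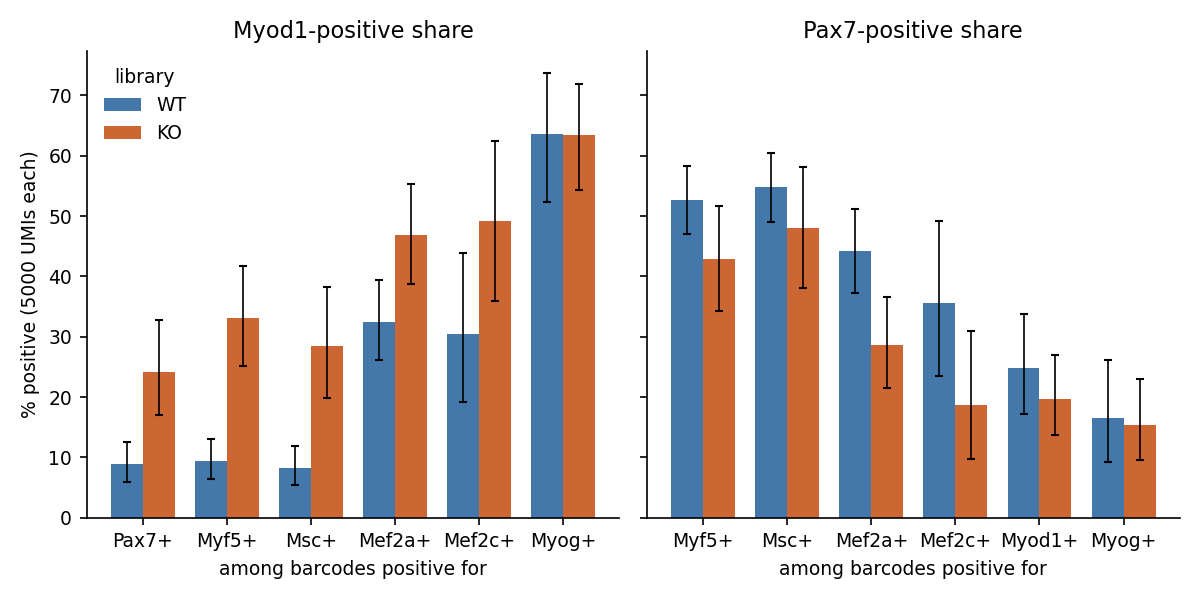
Share of barcodes positive for Myod1 (left) and Pax7 (right; both vertical axes in %, thinned to 5000 UMIs) among barcodes positive for another factor (horizontal axis), in the WT and KO library with 95% Clopper-Pearson intervals. Among Pax7-positive barcodes the Myod1 share is 8.86% in WT and 24.2% in KO, and among Myog-positive barcodes it is 63.5% and 63.4%.

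Relative to what independent genes would give, Myod1 and Myog were together 3.83 times as often as the product of their shares in WT and 1.64 times in KO. This ratio has a lower ceiling where shares are higher, as they were in KO. Pax7 and Myog were together 0.355 times as often in WT and 0.491 times in KO, and Pax7 and Myod1 0.534 and 0.627 times. Pax7 and Msc were together 1.18 times as often in WT and 1.53 times in KO, and Pax7 and Myf5 1.13 and 1.36 times. These values are descriptions, taken from 36 pairs in all.

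Within the myogenic barcodes, the members marked out sub-clusters that were built without them. Sub-cluster 2, led by Actc1, Acta1 and Mymk, was the differentiating one. There Myog was positive in 88.9% of 54 WT and 86.6% of 82 KO barcodes and Myod1 in 72.2% and 61.0%, against 9.26% and 13.4% for Pax7. Its Myog level was 3841 CPM in WT and 2787 CPM in KO. Sub-cluster 0, led by Chodl, Dnajb1 and Meg3, had the highest Pax7 shares of the sub-clusters with 30 or more barcodes per library, at 59.9% of 284 WT and 67.2% of 58 KO barcodes. In it Myod1 was positive in 7.04% of WT (4.35 to 10.7) and 32.8% of KO barcodes (21.0 to 46.3), and Myog in 4.58% and 6.90%. The Myog level there was 14.6 CPM in WT (70 UMIs) and 178 CPM in KO (139 UMIs), a ratio of 12.2 (9.06 to 16.5). After thinning 13 WT and 4 KO barcodes were Myog-positive, a difference of 2.32 points (-2.88 to 12.0), which includes 0. The interval of the level ratio counts UMIs and not barcodes, so it does not cover the spread between barcodes. Sub-cluster 1, led by Ifit1, Iigp1 and Srxn1, had Pax7 in 53.2% of 111 WT and 34.1% of 82 KO barcodes, Myod1 in 8.11% and 24.4%, and Myog in 2.703% and 22.0%. 

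The KO shares were also computed with the sub-clusters weighted as in the WT library. Over the 5 sub-clusters with at least 30 barcodes in each library, the Pax7 share was 47.8% in WT, 33.7% in KO and 47.7% in KO at the WT mix. Myf5 had 47.8%, 34.4% and 47.7%. For Myod1 the shares were 16.04% in WT, 38.0% in KO and 33.8% in KO at the WT mix. Myog had 13.5%, 33.1% and 19.2%, and Msc had 44.6%, 27.6% and 39.7%. At the WT mix Pax7 and Myf5 stood next to their WT shares, and Myod1 lay closer to the unweighted KO value. Levels within these sub-clusters still differed. The CPM ratios of Myf5 were 0.787, 0.598, 0.752 and 0.733 in sub-clusters 0, 1, 3 and 5, with intervals that exclude no difference. In sub-cluster 2 the Myf5 ratio was 1.12 (0.746 to 1.72). Pax7 had 1.22 (1.05 to 1.42) in sub-cluster 0 and 0.614 (0.511 to 0.736) in sub-cluster 1. Its intervals in sub-clusters 2, 3 and 5 include no difference. Sub-clusters were found on genes that differ between the libraries, and their sizes were not compared. Sub-clusters 4 (100 WT and 11 KO barcodes), 6 (12 and 33) and 7 (8 and 24) were left out of this weighting. With all sub-clusters kept, Msc at the WT mix came to 34.6%, against 44.5% in WT and 25.9% in KO. Pax7 then came to 46.5% and Myf5 to 48.1%.

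**Figure D4:**
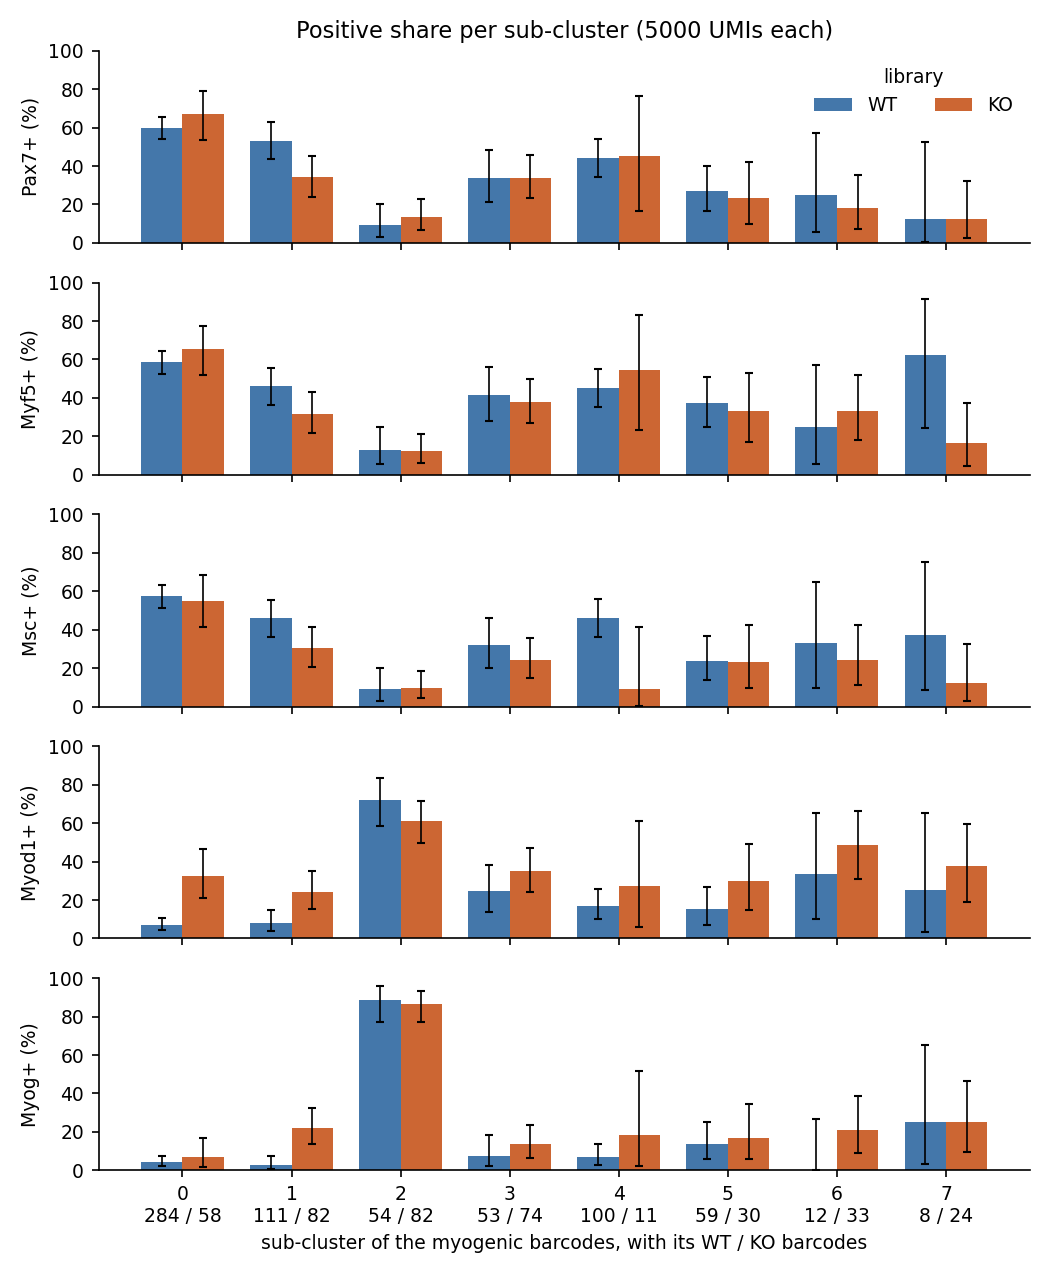
Share of barcodes positive for Pax7, Myf5, Msc, Myod1 and Myog (vertical axes, %, thinned to 5000 UMIs) in each of 8 sub-clusters of the myogenic barcodes (horizontal axis, with WT and KO barcode numbers) with 95% Clopper-Pearson intervals. In sub-cluster 0 Pax7 shares are 59.9% and 67.2% and Myod1 shares 7.04% and 32.8%, and sub-cluster 2 holds Myog in 88.9% and 86.6%.

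RNA of other cell types was present in these barcodes. The 18 phagocyte markers summed to 649 CPM in WT and 1252 CPM in KO myogenic barcodes. Their medians per barcode were 526 and 571 CPM. Of these 18, 14 were at least 1.5-fold higher in KO and 1 at least 1.5-fold lower, against 10.1% and 9.28% of all genes. Sub-cluster 7, led by Cd74, Lyz2 and Ctss, held 8 WT and 24 KO barcodes. Without it the CPM ratios were 0.593 for Pax7, 2.04 for Myod1 and 1.81 for Myog. The 15 muscle fibre markers summed to 1326 and 2398 CPM, and the 8 erythroid markers to 45.1 and 800 CPM, while their medians per barcode were 37.0 and 0 CPM. The 13 fibro-adipogenic markers summed to 730 and 736 CPM. Of the 9 tested, 5 were past 1.5-fold higher in KO and none lower, against the same 10.1% and 9.28% of all genes. The 10 mural markers summed to 914 and 1469 CPM, with medians per barcode of 528 and 999 CPM, and the 10 tenocyte markers to 63.1 and 137 CPM. The part of this other RNA in the results was not tested, other than by leaving out sub-cluster 7.

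Some KO barcodes outside the class also carried muscle genes. With at least 5 of the 24 myogenic markers as the rule for each barcode, 651 WT and 443 KO barcodes passed, of which 19 and 70 lay outside the class. Of the 70, 44 lay in fibro-adipogenic clusters. Cluster 10, a fibro-adipogenic cluster led by Hmmr and Prc1 with 78 WT and 336 KO barcodes, held 2 WT and 132 KO Myog UMIs. It also held 0 WT and 40 KO Myod1 UMIs. Classed by that rule, the Myod1 and Myog differences kept their direction, and Pax7 alone of Pax7, Myod1 and Myog was seen in 41.2% of WT and 16.3% of KO barcodes.

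Across the other classes the members split into muscle-restricted and broad ones. Pax7, Myf5 and Myod1 stayed below 2 CPM in every other class of at least 50 barcodes per library. Below that level Myod1 still differed in fibro-adipogenic cells, at 0.381 CPM in WT and 1.82 CPM in KO, a ratio of 4.78 (2.15 to 12.6). After thinning it was positive in 0 of 784 WT and 27 of 973 KO barcodes there. The excess lay in cluster 10, which held 40 of the 46 KO Myod1 UMIs of this class and 0 in WT. In cluster 1, the largest fibro-adipogenic cluster, Myod1 stood at 0.453 CPM in WT (7 UMIs) and 0.352 CPM in KO (6 UMIs). Myog passed 2 CPM in several classes. It was at 0.870 CPM in WT and 6.46 CPM in KO fibro-adipogenic cells, at 1.31 and 6.56 CPM in mural cells, and at 0 and 9.33 CPM in tenocytes. After thinning, 3.91% of KO fibro-adipogenic and 7.14% of KO tenocyte barcodes were Myog-positive. Within the fibro-adipogenic class Myog was at 0.830 CPM in WT and 16.7 CPM in KO in cluster 10. In cluster 1 it was at 0.842 and 1.76 CPM. Msc was found in fibro-adipogenic cells at 48.6 CPM in WT and 35.9 CPM in KO and in tenocytes at 39.6 and 28.0 CPM. Mef2c was highest in mural cells, with 522 CPM in WT and 437 CPM in KO, a ratio of 0.837 (0.738 to 0.9498). Endothelial cells followed with 242 and 253 CPM, phagocytes with 149 and 167 CPM and dendritic cells with 118 and 141 CPM, all above the myogenic class. Mef2a was highest in mural (209 and 264 CPM) and endothelial cells (181 and 211 CPM), whose intervals meet in WT, followed by phagocytes (105 and 137 CPM) and the myogenic class. The KO to WT ratio of Mef2a was 1.31 in phagocytes (1.26 to 1.36), 1.36 in fibro-adipogenic (1.24 to 1.48) and 1.34 in myogenic barcodes.

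**Figure D5:**
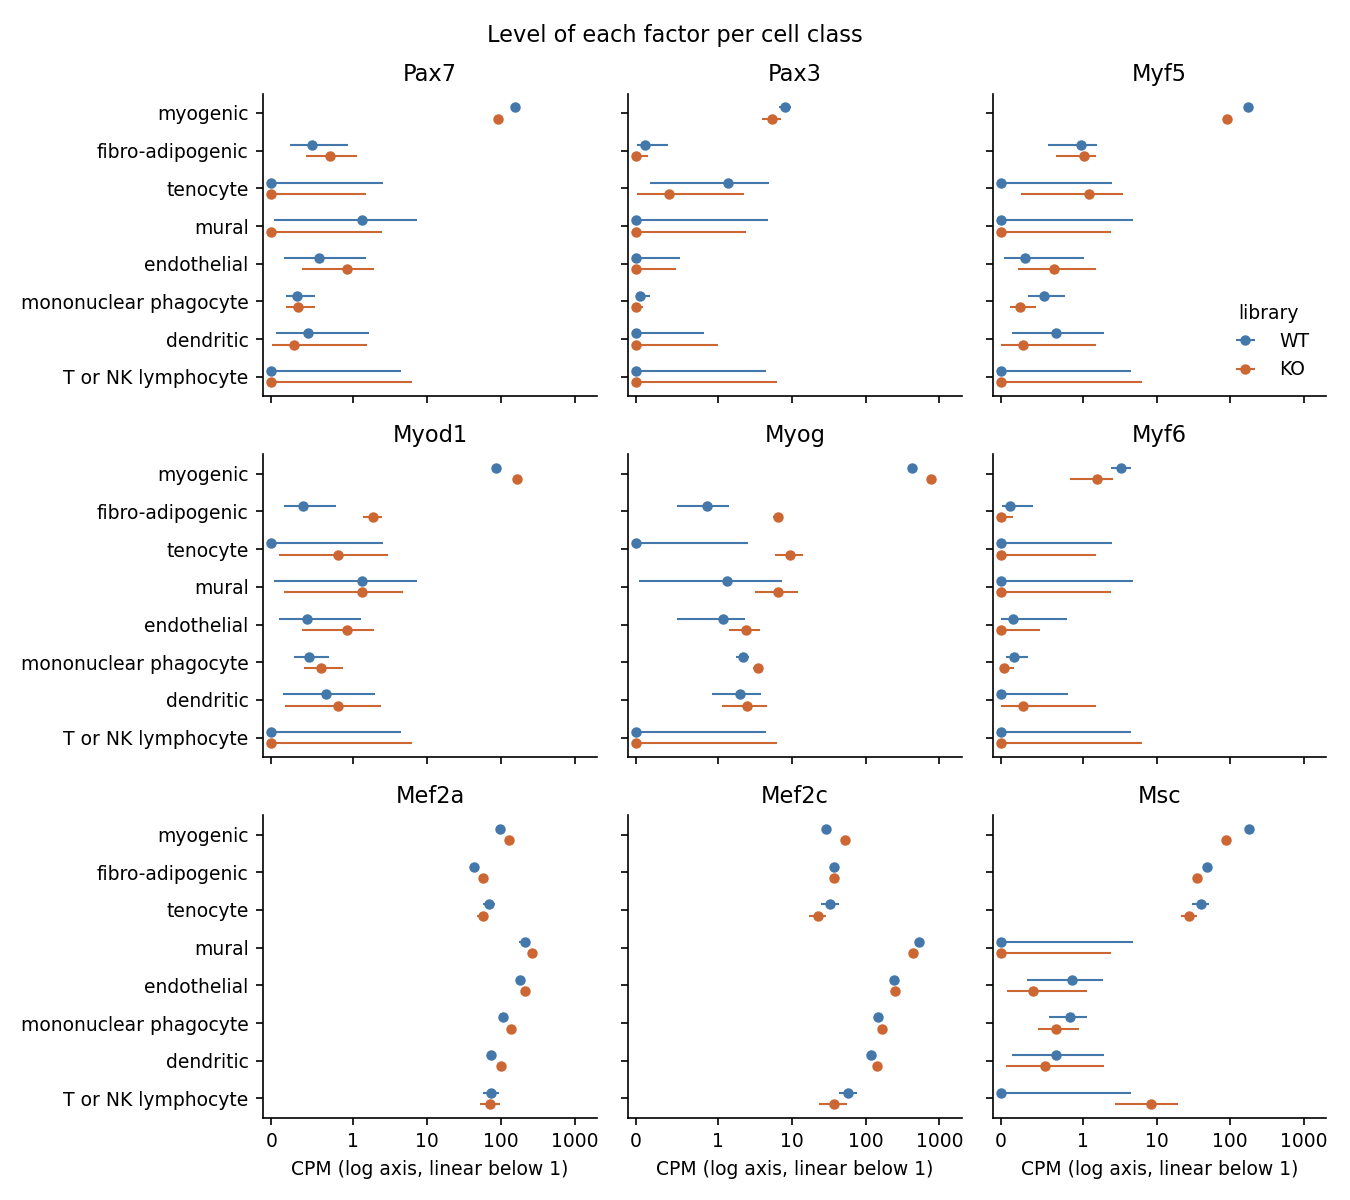
Level of each factor (horizontal axis, CPM, logarithmic and linear below 1) in 8 cell classes (vertical axis) of the WT and KO library, with 95% Poisson intervals. Pax7, Myf5 and Myod1 stand far to the right in the myogenic class alone, and Mef2c reaches 522 CPM in WT mural cells.

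Genes that varied with the members across myogenic barcodes were named by the smaller of the WT and KO Pearson correlations over 9859 genes (681 and 394 barcodes of 1 library each, sharing depth). Most like Myog were Mymx (0.820 and 0.818) and Mymk (0.803 and 0.740), the 2 membrane proteins of myoblast fusion, then Fndc5, Rbm24 and Arpp21. Most like Myod1 were Rbm24 (0.566 and 0.481), an RNA-binding protein of muscle splicing, and Myog (0.676 and 0.435), followed by Purb, Bin1 and Chrna1. Most like Pax7 was Peg3 (0.408 and 0.503), followed by Mdfic, Egr1, Col3a1 and Zbtb20. Myf5 and Msc led each other's lists (0.353 and 0.407). After Msc, Myf5 was most like Id3, Pax7, Islr and Adamts5. After Myf5, Msc was most like Islr, Gpx3, Heyl and Dtx4.

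The lists of related genes were chosen with earlier results of these data known, so their counts are descriptions. Of 21 tested stem cell genes that accompany Pax7, 6 were past 1.5-fold lower (28.6%, against 9.28% of all genes) and none higher. Their median ratio was 0.776, against 1.04 over all genes. Chodl (71.4 and 28.2 CPM, a ratio of 0.395), Edn3 (7.59 and 1.87 CPM), Tenm4 (14.96 and 6.82 CPM), Vcam1 (313 and 193 CPM) and Gas1 (138 and 91.6 CPM) were lower, as was Fgfr1 (93.2 and 61.5 CPM), which was named after its values were seen. Chodl is 1 of 9 genes of this list that also served as myogenic markers. Among 19 tested bHLH partners and inhibitors, 5 were past 1.5-fold lower (26.3%, against 9.28% of all genes) and none higher. They were Hey1, a Notch target (42.9 and 19.3 CPM), Id3 (1157 and 616 CPM) and Id1 (509 and 330 CPM), which sequester bHLH partners, Mdfic (78.3 and 46.8 CPM) and Bhlhe41 (31.0 and 18.1 CPM).

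Of 30 differentiation genes downstream of MYOD1, myogenin and MEF2, 19 were past 1.5-fold higher in KO (63.3%, against 10.1% of all genes) and 2 past 1.5-fold lower (6.67%, against 9.28%). Their median ratio was 1.63, against 1.04 over all genes. Examples are Tnnt2 (198 and 579 CPM, a ratio of 2.92), Acta1 (403 and 1020 CPM), Lmod3 (21.0 and 56.7 CPM), Klhl41 (22.4 and 53.4 CPM) and Neb (134 and 270 CPM), all of the contractile apparatus or its assembly. The lower ones were Myh8, a perinatal myosin with 61 WT and 15 KO UMIs, and Cdkn1c, a cell cycle inhibitor (1897 and 985 CPM). These 2 were named after their values were seen. Of the list, 11 genes were also myogenic markers.

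Of 26 tested MEF2 relatives and cofactors of MYOD1 and MEF2, 4 were past 1.5-fold higher (15.4%, against 10.1% of all genes). They were Tead4 (5.64 and 13.2 CPM), a transcription factor that binds MCAT elements, Rb1 (21.7 and 40.3 CPM) and Rbl1 (7.07 and 12.9 CPM), of the retinoblastoma family, and Kdm1a (165 and 280 CPM), a histone demethylase. Among 13 tested genes of the homeobox, Eya and Dach families, Hoxa11 was past 1.5-fold higher (51 and 53 UMIs, a ratio of 1.52). Six5 (45 and 13 UMIs) and Six2 (42 and 16 UMIs, named after its values were seen) were past 1.5-fold lower. These shares of 7.69% and 15.4% lie near those of all genes, 10.1% and 9.28%. Of the same list Six4 (41.2 and 28.8 CPM) and Hoxc10 (78.2 and 58.0 CPM) lay within 1.5-fold.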

How the data were processed

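The data are UMI counts per gene and barcode of 1 WT and 1 KO library (10x Genomics single-cell 3' v2, per the labels' protocols), with 121703522 and 138667420 UMIs in all. The counts were deposited by the authors as whole numbers with no filter on barcodes, per the values in the files. Per the submitters' processing notes the build is GRCm38 and the tools include Seurat 4.0.1, STAR 2.7.8a and STARsolo 2.7.9a. Which annotation was used, and how reads were counted, is not stated there.

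Cells were called again, as described in the report. Doublets were scored with Scrublet (scanpy 1.11.5). Because its automatic threshold found 0 doublets per library, barcodes with the top scores (360 WT and 368 KO, a rate of 0.8% per 1000 barcodes) were dropped. Clustering used 10000 UMIs per cell, a log scale, 2000 variable genes, 30 components, 15 neighbours and Leiden resolution 1 (leidenalg 0.10.2), without integration. Names went to clusters by the marker list best represented in them (markers seen in 10% or more of the barcodes and higher than elsewhere, 3 at least), unless another list led their top 10 genes. Myogenic barcodes were clustered again (resolution 0.5, 1000 variable genes). Intervals are Clopper-Pearson for shares, Newcombe for differences, Poisson for CPM and conditional binomial for ratios. They and the thinning were tested on simulated data. GENCODE M21 held 55141 of the 55487 gene identifiers.

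The members and lists were chosen with earlier results of these data known. Named genes are the 9 members, Setdb1, up to 5 genes per list with the largest absolute log2 ratio of CPM + 5, and for 5 members the 5 genes most alike by correlation. Some genes that this rule names are not reported here.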

Additional observations from a re-analysis of the deposited data

Results flagged for a closer look

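Mef2c differed in direction between 2 cell classes. Its KO to WT ratio of CPM was 1.83 (1.60 to 2.10) in myogenic barcodes and 0.837 (0.738 to 0.9498) in mural cells. Each class holds 1 library per group, so the difference between the classes was not tested.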

How the results depend on the processing

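Shares of Pax7, Myf5, Myod1 and Myog kept their direction in 56 of 56 recomputations, and CPM ratios of the 9 members in 98 of 99. Of all 443 recomputed ratios, 427 kept their direction. At 2000 thinned UMIs the Myf5 share ratio moved to 0.567 and the ratio of Pax7 with Myog reversed to 0.576, on very few barcodes. The ratio of Pax7 without Myod1 and Myog was 0.724 at 1000 thinned UMIs (that of Pax7 with Myod1 and no Myog 8.64, on 1 WT barcode), 0.396 without thinning and 0.395 with myogenic barcodes taken by 5 or more own markers, an alternative added after the data were seen, as was leaving out sub-cluster 7. With own markers the Myog level ratio was 1.70 and the Myf6 level reversed to 1.04. With a minimum of 2000 UMIs (706 WT and 554 KO barcodes) the level ratios were 0.597 for Myf5, 2.16 for Myog, 0.375 for Pax3, 0.212 for Myf6, 2.74 for Mef2c and 1.04 for Mef2a, and 712 genes were past 1.5-fold higher and 455 lower. Leaving out the 5% of barcodes with most UMIs gave 2.27 for Myod1 and 2.09 for Myog, means of per-barcode levels gave 2.16 and 2.06, and median-of-ratios scaling gave 1.72 for Myog. Over all genes, 1656 were lower with 20 or more UMIs, 618 were higher and 488 lower with 200 or more, 2981 and 3086 with 1 or more in each library, and 366 and 375 at a fold of 2. The cause was not tested. No paired analysis was possible because each group has 1 library. Depth limits rare patterns, Pax3 and Myf6.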
